A study of Trichoderma reesei QM6a with 4 samples.

Results

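The xylanases and xylan side-chain enzymes of the filamentous fungus Trichoderma reesei were 10 of the 9127 genes on the array, chosen by the number in their array names: the endoxylanase genes xyn1 (ASTRICH74223), xyn2 (ASTRICH123818), xyn3 (ASTRICH120229) and xyn4 (ASTRICH111849), the beta-xylosidase gene bxl1 (ASTRICH121127), the arabinofuranosidase genes ASTRICH123283, ASTRICH55319 and ASTRICH76210, the acetyl xylan esterase gene axe1 (ASTRICH73632) and the glucuronidase gene glr1 (ASTRICH72526). The reference table gave a symbol to axe1 alone, and the other names come from the list that defined the genes. Transcript levels were measured from total RNA on 4 one-colour arrays: 2 carried RNA of the wild type and 2 carried RNA of AT01, which the labels call a mutant that accumulates copper strongly. The labels name the organism as strain QM6a and do not name the altered gene in AT01 or say how the mutant was made. Both strains were grown as mycelium in YPD, a medium rich in peptides and glucose, that held 1 mM CuSO4, at 25 °C over 5 days, so every array, the wild type's included, is of a copper-treated culture. Whether the arrays of a strain stand for separate cultures is not stated. The p-values therefore measure only the array-to-array spread, which may be technical. In RNA from a whole mycelium, fewer cells that express a gene and less RNA per cell cannot be told apart.

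Xylan is a chain of xylose units that carries arabinose, glucuronic acid and acetyl groups. Endoxylanases cut the chain, beta-xylosidase frees xylose from the short pieces, and arabinofuranosidases, acetyl xylan esterases and glucuronidases take off the side groups. In Trichoderma reesei the genes of these enzymes are known as secreted-enzyme genes that respond to xylan, xylose and cellulose-derived sugars through the activator Xyr1 and are held low on glucose through the repressor Cre1.

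Most of the xylan enzyme genes gave little or no measurable signal in either strain, and a single gene, the arabinofuranosidase gene ASTRICH55319, was called higher in AT01. All 5 of its probes were well above background on both AT01 arrays, against 1 of 5 on each wild-type array, and its averaged log2 level was 2.08 ± 0.12 higher in AT01 (SE, n = 2 arrays per strain). Its 1 probe that was measured in both strains changed by 0.20 ± 0.17 and was not called, and the call of the gene ended with that probe alone and with normexp background correction. The genes bxl1 and ASTRICH76210 were called lower, by -0.51 ± 0.13 and -0.47 ± 0.13 on the log2 scale, but no probe of theirs that was well above background was called lower on its own. Among all genes tested 14% were called higher and 30.4% lower. For xyn1, xyn2, xyn4 and glr1 no level could be tested.

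The arrays were dim, more so those of the wild type. Each array was scaled to its 75th percentile of processed signal, which was 20.9 and 22.2 in the wild type and 41.5 and 39.6 in AT01. Of all 43565 probes for genes, 46.0% to 48.0% lay well above background on the wild-type arrays and 60% to 60.9% on the AT01 arrays. Probes with no usable signal carry a lowest value of 1.42 to 1.57 on every array, so after scaling their log2 values lay at -3.88 and -3.82 in the wild type and at -4.76 and -4.72 in AT01. A gene without signal in either strain therefore reads lower in AT01 by the scaling alone. All 4 arrays carried 1 scan time in their headers, and the strains lay at different positions of the scan, so position and strain cannot be told apart. The mycelial hydrophobin gene hfb1 and the glycolytic gene gpd1 were well above background with every probe on every array, whereas 0 of 5 probes of the conidial pigment gene pks4 and 1 or 2 of the 4 probes of hfb2, a hydrophobin gene linked to sporulation, were. Of these markers hfb1 was called higher in AT01 (0.57 ± 0.12) and gpd1 lower (-0.60 ± 0.12), and their part in the results on the xylan enzyme genes was not tested.

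Detection of the xylan enzyme genes was poorer than that of the array as a whole. Of their 49 probes, 7 were well above background on each wild-type array (14.3%), and 16 (32.7%) and 14 (28.6%) were on the AT01 arrays. At the lowest value stood 23 and 22 of the 49 probes in the wild type and 13 and 13 in AT01. Without ASTRICH55319, whose probes make up 5 of the 16 and of the 14, the AT01 counts stand closer to those of the wild type. Over all arrays 33 of the 49 probes were never well above background, and 6 were on all 4 arrays, counts that include 1 spot of xyn2 that was left out of every test as non-uniform. A gene was tested if, in the wild type or in AT01, both arrays had the same usable probe well above background. Of all genes 8016 met this, and of the 10 xylan enzyme genes 6 did: xyn3, bxl1, the 3 arabinofuranosidase genes and axe1. A gene that passes in AT01 alone had to be bright there, so counts over the genes that passed do not stand for all 10.

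**Figure D1:**
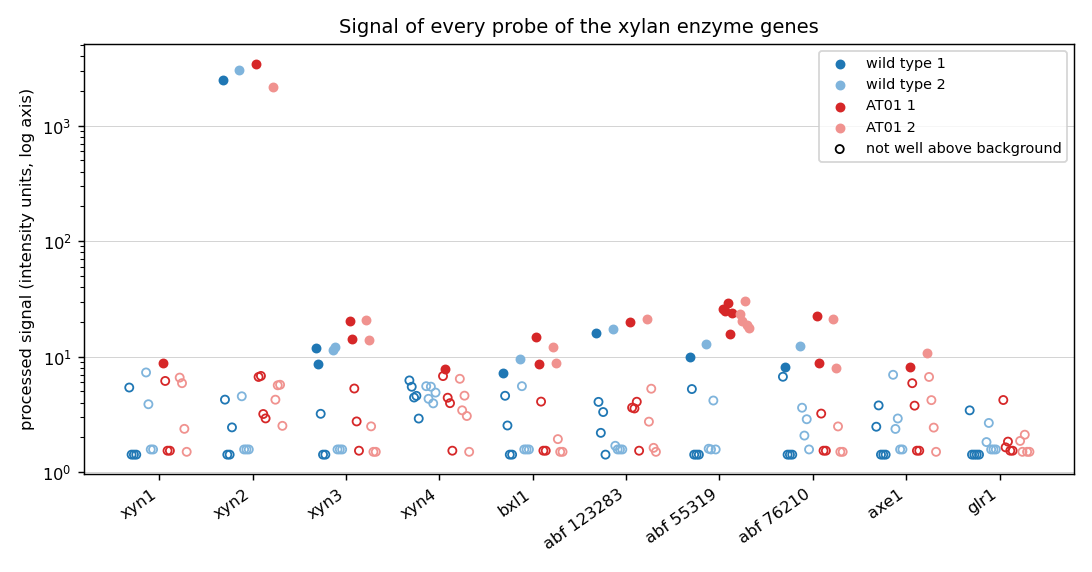
Processed signal (intensity units, log axis) of each of the 49 probes on the 4 arrays, grouped by gene, with filled points well above background and open points not, where abf stands for arabinofuranosidase. Every probe of ASTRICH55319 (abf with the same number) is filled on both AT01 arrays and 1 of 5 on each wild-type array, most other points are open, and the points of xyn2 from 2154 to 3452 belong to 1 probe whose spot was left out as non-uniform on all 4 arrays.

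The arabinofuranosidase gene ASTRICH55319 codes for an enzyme that removes arabinose side groups. Its level on the scaled log2 scale, averaged over its 5 probes, was -2.94 and -2.92 in the wild type and -0.83 and -0.87 in AT01. The averages of AT01 stood well apart from those of the wild type, and the averages within a strain lay close together. In the wild type this closeness is not agreement of measured levels. There the second-ranked probe by brightness read -1.99 and -3.80 and the fourth-ranked -3.88 and -2.41, which offset each other in the average. Fitted singly, these probes had SEs of 0.60 and 0.50. The third- and fifth-ranked probes stood at the lowest value. The log2 fold change of 2.08 had a Benjamini-Hochberg adjusted p of 0.00150 in limma over all genes tested. In the wild type 4 of the 5 probes were not well above background, so the size of this average and its error depend on the lowest value set for dim spots, and the probes give the change as bounds.

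The 5 probes of ASTRICH55319 did not give 1 size of change. The third-ranked probe by brightness read a processed signal of 1.42 and 1.57 in the wild type, the lowest value, and 29.1 and 30.1 in AT01. The fifth-ranked probe likewise read the lowest value on both wild-type arrays, 1.42 and 1.57, and 24.1 and 17.8 in AT01. The second-ranked probe read 5.25 and 1.60 in the wild type, neither of them well above background, and 24.8 and 20.5 in AT01. The fourth-ranked probe read 1.42 and 4.17 against 15.6 and 18.7. For these 4 probes the wild type has only an upper limit, and the change is a bound, which sets the AT01 mean against the lowest signal well above background on each wild-type array: at least 2.11-fold for the third-ranked, 1.61-fold for the second-ranked, 1.47-fold for the fifth-ranked and 1.21-fold for the fourth-ranked probe. The single-probe fit in limma gave Benjamini-Hochberg adjusted p-values of 0.00655 for the third-ranked, 0.0567 for the second-ranked, 0.00979 for the fifth-ranked and 0.0449 for the fourth-ranked probe. All 4 met the filter in AT01 alone, where they had to be bright. Where both wild-type arrays stand at the lowest value their spread is that of the limit, not of the gene. On AT01 array 2 the highest of 153 negative control spots read 22.3, above the second-, fourth- and fifth-ranked probes there (20.5, 18.7 and 17.8), while the median control stood at the lowest value. On AT01 array 1 the highest control read 3.87, below all 5 probes.

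The brightest probe of ASTRICH55319 behaved otherwise. It was well above background on all 4 arrays, with 9.98 and 12.9 in the wild type and 25.9 and 23.3 in AT01, and since the AT01 arrays were brighter as a whole, its scaled log2 change was 0.20 ± 0.17 (95% interval -0.24 to 0.64, Benjamini-Hochberg adjusted p = 0.400 in limma). The call of the gene ended when this probe alone stood for it. It ended too with normexp background correction at an offset of 50 (log2 fold change 0.11, Benjamini-Hochberg adjusted p = 0.0843 in limma). The effect of the offset was not tested. The gene was called at 2.27 after quantile normalization, at 1.98 after cyclic loess, at 2.06 when dim probes of all arrays were raised to 1 common limit, and at 1.28 in the authors' deposited table. Each of these averages holds the same 4 probes without a measured wild-type level, so they are not separate support for the rise. In the authors' table the third-, fourth- and fifth-ranked probes all read the same 2.3901 and 2.3942 in the wild type. The same detection pattern, with every probe well above background on both AT01 arrays and at most 1 on each wild-type array, was found in 56 genes, or 0.699% of those tested, a count made after the values were seen.

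**Figure D2:**
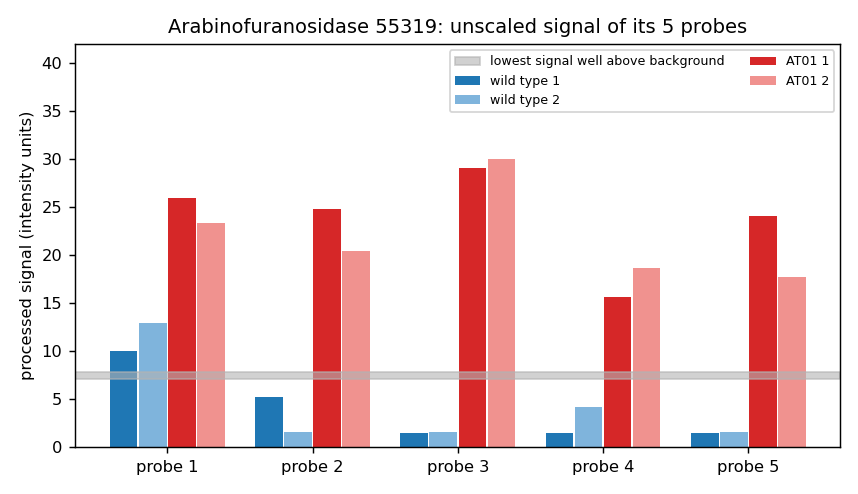
Processed signal (intensity units, not scaled between arrays) of the 5 probes of ASTRICH55319, ordered by mean brightness, with 1 bar per array and a grey band for the lowest signal well above background on the arrays. Probe 1 passes the band on all 4 arrays, and probes 2 to 5 pass it on the AT01 arrays and on neither wild-type array.

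The other arabinofuranosidase genes gave no such rise. The gene ASTRICH123283 had 1 probe well above background on all 4 arrays, with processed signals of 16.1 and 17.4 in the wild type and 19.9 and 21.4 in AT01. Against the greater brightness of the AT01 arrays these signals came to a scaled log2 change of -0.61 ± 0.15, called lower among single probes (Benjamini-Hochberg adjusted p = 0.0379 in limma). Averaged with its 4 dim probes, the gene read -2.50 and -3.10 in the wild type and -3.24 and -3.40 in AT01. The groups lay near each other, and the log2 fold change of -0.52 ± 0.22 was not called (adjusted p = 0.0979 in limma, Benjamini-Hochberg). It was called with the replicate number as a block (adjusted p = 0.0298 in limma), with normexp (-0.20), with its brightest probe, with its detected probe alone, in the authors' deposited table (-0.62) and without wild-type array 2 (-0.82).

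The gene ASTRICH76210 had 2 probes well above background on both AT01 arrays, and each of these was so on 1 wild-type array. Its brightest probe read 6.71 and 12.5 in the wild type and 22.3 and 21.0 in AT01, a scaled log2 change of 0.33 ± 0.29. The next read 8.11 and 3.62 against 8.88 and 8.01, a change of -0.27 ± 0.43, so the measured probes pointed in opposite directions and neither was called. Averaged over all 5 probes the levels were -2.93 and -2.73 in the wild type and -3.26 and -3.33 in AT01, and the gene was called lower, at -0.47 ± 0.13 (limma's Benjamini-Hochberg adjusted p = 0.0330). That call ended when dim probes were raised to the common limit (-0.10), quantile normalization (-0.16), cyclic loess (-0.12), the percentile over detected probes (-0.38) and a trended and robust prior variance. It ended too without wild-type array 2 (-0.37), AT01 array 1 (-0.50) or AT01 array 2 (-0.44). The sign turned with the brightest probe, with detected probes averaged (0.027) and, in the authors' deposited table, at 0.051.

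Among the endoxylanase genes only xyn3 was measured. Its brightest probe read 11.8 and 11.4 in the wild type and 20.2 and 20.6 in AT01, a scaled log2 change of -0.09 ± 0.15 (95% interval -0.49 to 0.30). Its second probe read 8.59 and 12.1 against 14.4 and 14.0, a change of -0.44 ± 0.19. Both were well above background on all 4 arrays and neither was called. Averaged over 5 probes xyn3 read -2.51 and -2.66 in the wild type and -2.84 and -3.17 in AT01, and the log2 fold change of -0.42 ± 0.16 was not called (Benjamini-Hochberg adjusted p = 0.0740 in limma). It was -0.13 with the common limit and -0.055 after quantile normalization, not called, and was called at -0.19 with normexp.

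The genes xyn1 and xyn2 code for the pair of small endoxylanases that are the major secreted xylanases of this fungus, and neither could be tested. The brightest of the 4 probes of xyn1 read 5.41 and 7.30 in the wild type and 8.75 and 6.59 in AT01, and it was well above background on AT01 array 1 alone. The other probes of xyn1 were not well above background on any array. For xyn2, 4 of 5 probes were not well above background on any array, with processed signals from 1.42 to 6.82. The remaining probe was the brightest spot among all xylan enzyme genes, at 2468 and 3046 in the wild type and 3452 and 2154 in AT01, but the image analysis had flagged its pixels as non-uniform on all 4 arrays, so it was left out. It was 1 of 7 probes on the array flagged so on all 4 arrays, and no level of xyn2 is drawn from it.

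The endoxylanase gene xyn4 had 1 of its 5 probes well above background, on AT01 array 1 alone, at 7.89, where the same probe read 3.43 on AT01 array 2 and 5.49 and 4.32 in the wild type. Its 5 probes lay between 2.91 and 6.23 in the wild type, above the lowest value but not well above background. Its averaged scaled levels were -2.19 and -2.21 in the wild type and -3.28 and -3.53 in AT01. Without scaling, the log2 changes of its probes ran from -1.31 to 0.17. Both sides are below the detection level in nearly all probes, so no fold is given.

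The beta-xylosidase gene bxl1, whose enzyme releases xylose from xylo-oligosaccharides, was called lower in the average of its probes but not in the probes that measured it. Its brightest probe, well above background on all 4 arrays, read 7.21 and 9.50 in the wild type and 15.0 and 12.2 in AT01, a scaled log2 change of -0.21 ± 0.19. Its second probe read 4.59 and 5.56 in the wild type, not well above background, and 8.59 and 8.86 in AT01, where it was, with a change of -0.12 ± 0.16. The 3 remaining probes were not well above background on any array, and 2 of these stood at the lowest value on all 4. Averaged over 5 probes the levels were -2.90 and -2.94 in the wild type and -3.32 and -3.53 in AT01, a log2 fold change of -0.51 ± 0.13 (limma's Benjamini-Hochberg adjusted p = 0.0270). The call ended with the common limit (-0.097), quantile normalization (-0.084), cyclic loess (-0.15), the percentile over detected probes (-0.42), the brightest probe, the detected probes alone (-0.17) and the authors' deposited table (-0.073), and without wild-type array 1 (-0.49), wild-type array 2 (-0.52) or AT01 array 2 (-0.40).

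**Figure D3:**
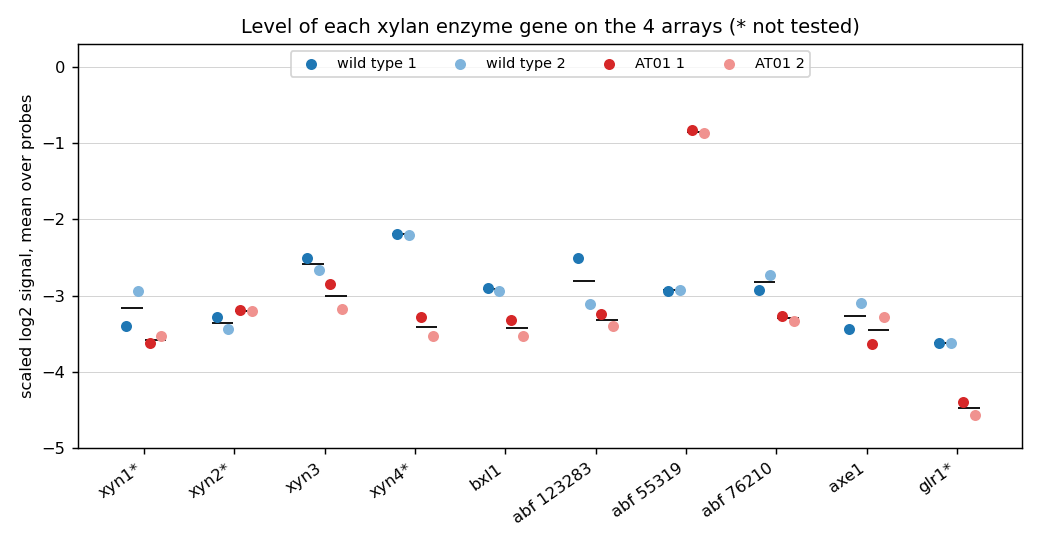
Scaled log2 signal of the 10 genes, averaged over the probes of a gene (vertical axis), with 1 point per array and a short black line at each strain's mean. Points may be compared within a gene only, and ASTRICH55319 is the 1 tested gene with its AT01 points, -0.83 and -0.87, above its wild-type points.

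The remaining side-chain enzymes were at or near background. The acetyl xylan esterase gene axe1 had 1 of 5 probes well above background, on both AT01 arrays, with 8.12 and 10.9 there and 2.48 and 6.97 in the wild type. That probe changed by 0.26 ± 0.50 on the scaled log2 scale (95% interval -1.03 to 1.55), too wide to give a direction, and no bound above 1-fold can be given. The averaged levels of axe1 overlapped between the strains, at -3.43 and -3.09 against -3.63 and -3.28, and the change of -0.19 ± 0.18 was not called (Benjamini-Hochberg adjusted p = 0.419 in limma), with its sign turning under 6 alternatives. The glucuronidase gene glr1, whose enzyme removes glucuronic acid groups, was well above background with 0 of 5 probes on every array, and its signals ran from 1.42 to 4.22. At this brightness no difference in glr1 was detectable.

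Of the 6 tested xylan enzyme genes 1 rose, 2 fell and 3 were not called, where 14% of all genes tested rose and 30.4% fell. The median of their log2 fold changes was -0.45 where that of all genes tested was -0.23, and with the common limit these were -0.10 and -0.076. With that limit, quantile normalization, cyclic loess or the percentile over detected probes ASTRICH55319 was the 1 gene called. At the level of single probes 13 of the 49 could be tested, 5 of them of ASTRICH55319, and probes of 1 gene share their target. Of the 13, 3 were higher, all of ASTRICH55319, and 1 was lower, of ASTRICH123283, where 15.2% of all 25202 probes tested were higher and 17.4% lower. The 3 higher probes met the filter in AT01 alone and so had to be bright there, and their count does not stand for the 49. Without AT01 array 1 or AT01 array 2 the single-probe fit in limma called 0 probes of the whole array, and 2 and 3 of the 13 had an unadjusted p under 0.05. Without wild-type array 1 or 2 it called 6 and 7 of the 13, where it called 44.3% and 36.2% of all probes.

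**Figure D4:**
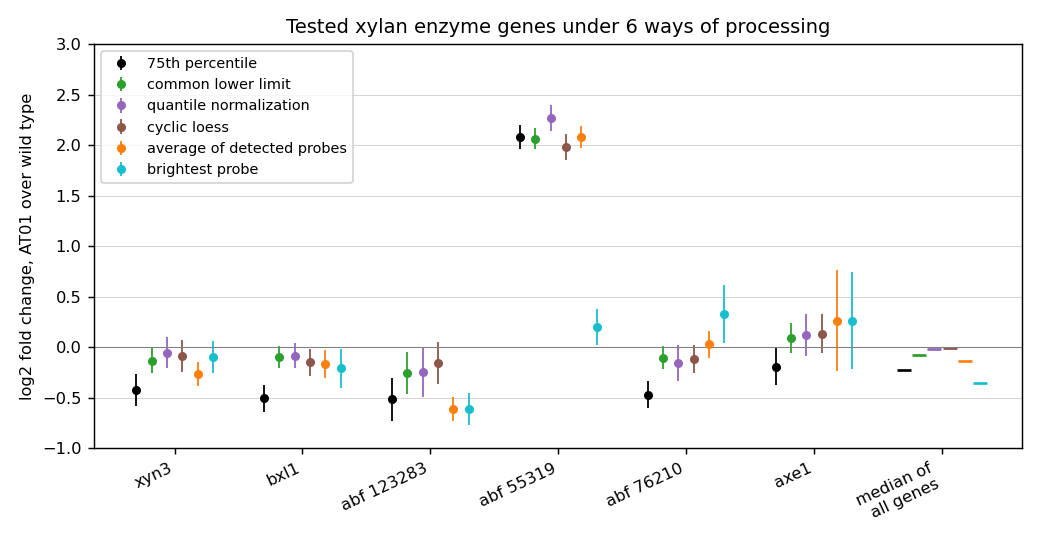
Log2 fold change of AT01 over wild type (points, with bars of 1 SE) of the 6 tested genes under 75th percentile scaling and 5 alternatives, with short lines for the median of all genes tested. ASTRICH55319 stands between 1.98 and 2.27 except with its brightest probe, at 0.20, and the changes of the other 5 genes lie between -0.61 and 0.33.

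The cellulase genes, the nearest group of secreted polysaccharide hydrolases, are given for comparison without a test of the difference between the groups. Of 13 cellulase and cellulose-accessory genes 10 could be tested. Of these 9 fell and 0 rose, at a median of -0.75 on the log2 scale. Once dim probes were raised to the common limit 3 fell, and after quantile normalization 2 fell and 1 rose. Over all genes tested the share called lower was 30.4% with 75th percentile scaling, 14.9% with the common limit and 9.96% after quantile normalization. With 75th percentile scaling the highest change among the cellulases was 0.20.

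The regulators and the genes listed for pentose use gave a mixed picture. Among the regulators xyr1, the activator of xylanase and cellulase genes, fell. It read -1.41 and -1.22 in the wild type and -2.13 and -2.04 in AT01. Its log2 fold change was -0.77 ± 0.13 (Benjamini-Hochberg adjusted p = 0.00885 in limma), and it was called lower under every one of the 17 alternatives run, from -0.23 to -0.87. The -0.23 of xyr1 came with normexp, which called 54.5% of all genes lower at a median of -0.16. All alternatives reuse the same 4 arrays. The repressor gene cre1 was bright, at 3.78 and 3.82 in the wild type and 3.53 and 3.62 in AT01, and was not called (-0.23 ± 0.12, limma's Benjamini-Hochberg adjusted p = 0.171). The repressor gene ace1 read 1.27 and 1.60 against 1.41 and 1.42, and its change of -0.020 ± 0.15 was not called either. The signs of cre1 and ace1 turned with quantile normalization, cyclic loess and normexp. With normexp cre1 was called higher (0.20, limma's adjusted p = 0.0418), and in the authors' deposited table ace1 was (0.46, limma's adjusted p = 0.0471). The regulator gene ace3, at -0.024, was not called. Of 4 tested genes listed by symbol for pentose use, with a median of -0.33, 2 fell and 0 rose. The list holds lxr1, and whether its enzyme acts in pentose use was not tested. The listed gene xdh1, at 0.035 ± 0.15, was not called. Over all genes tested 30.4% fell and 14% rose, with a median of -0.23. The 2 that fell were xyl1, the xylose reductase gene that starts the breakdown of xylose, at -0.70 ± 0.14 (limma's Benjamini-Hochberg adjusted p = 0.0130), and lad1. None of the probes of lad1 was well above background in the wild type. The call of xyl1 ended without AT01 array 1 (-0.58). That of lad1 (-0.82) ended with the common limit (-0.26), quantile normalization (-0.35), cyclic loess (-0.35), its brightest probe (-0.24), its detected probe alone (-0.24), and without AT01 array 2 (-0.73), and its value in the authors' deposited table was 0.0054. The gene lxr1, well above background with all 5 probes on all 4 arrays, read 2.27 and 1.52 in the wild type and 2.60 and 2.72 in AT01. Its change of 0.76 ± 0.25 was not called (adjusted p = 0.0508 in limma, Benjamini-Hochberg). A call of lxr1 as higher came with cyclic loess (1.01), normexp (0.79), the filter on all 4 arrays, non-uniform spots kept, the replicate block and without wild-type array 1 (1.14), and its change was 0.39 without wild-type array 2. The rise of ASTRICH55319 stood beside a lower xyr1 signal in AT01, and any relation of the pair was not tested.

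In the order of the reference table ASTRICH55319 and xyn3 lay 7 loci apart, the closest pair among the 10 genes. Of the 6 loci between them 5 were tested, 3 were called lower and 0 higher, with log2 fold changes from -1.02 to -0.0052. Of all genes tested 30.4% were called lower and 14% higher. The locus at -1.02, ASTRICH103898, had 1 of 4 probes that met the filter, and its averaged level was -3.95 and -3.73 in AT01. Changes of these loci under the alternatives are not given. The tested gene nearest on the far side of ASTRICH55319, ASTRICH74971, was lower by -0.62 ± 0.12 on the log2 scale (limma's Benjamini-Hochberg adjusted p = 0.0128). None of the tested loci in this stretch other than ASTRICH55319 was called higher. These loci were looked at after their values were seen.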

How the data were processed

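The deposited intensity values were, per the file headers, Cy3 processed signals on a linear scale, background-subtracted and spatially detrended, with flags per spot; the submitters' processing notes name Agilent Feature Extraction 10.5.1.1. The authors' deposited value table was log2, judged from its values (r with each array's own log2 signal 0.993 to 0.996; column medians 4.31, 4.31, 4.31 and 4.31). It was normalized between arrays by a method not given in the sources used here, and it held 28201 probes, 15 of them for 8 of the xylan enzyme genes. Its direction follows its sample columns.

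Control spots and spots flagged non-uniform were left out, also from the filter, each array's 75th percentile was subtracted from log2 signals, and the probes of a gene were averaged. AT01 was set against wild type in limma 3.58.1 (lmFit, eBayes; R 4.3.3), over all genes or all probes tested; calls had Benjamini-Hochberg adjusted p-values under 0.05; the code was tested on simulated data. An exact permutation test of 2 against 2 arrays cannot go below 0.333, so none is given. The number of arrays limits the precision. By number, 9070 of 9127 array names matched locus tags in the reference table (assembly v2.0), which is the basis for symbols and order. The array's gene build is not named, so coordinates are left out, and no probe or gene sequence was used here. The array files hold no spot mean, so normexp used the spot median. The genes and lists were chosen with earlier results of these data known. All 10 genes are named whatever their values, and of the other lists xyr1, ace1, cre1 and xyl1; other genes were named after their values were seen. The list of pentose genes held xki1, and the mycelial markers held tef1 and act1, which matched no symbol and were not analysed here. One regulator gene of the lists is not reported here.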

Additional observations from a re-analysis of the deposited data

Results flagged for a closer look

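One spot of xyn2 held strong signal that no comparison used. Its processed signal was at least 2154 on every array, while the highest of the 153 negative control spots read 2.49 and 6.83 in the wild type and 3.87 and 22.3 in AT01. It was flagged as non-uniform on all 4 arrays, as were 6 other probes, and all 7 were well above background on all 4. When flagged spots were kept, an alternative chosen after seeing the data, this probe changed by -0.93 ± 0.25 on the scaled log2 scale (limma's Benjamini-Hochberg adjusted p = 0.0489 among single probes). Without scaling its log2 change was -0.0079. Averaged over its probes in that alternative, xyn2 changed by -0.060 ± 0.13 and was not called (limma's Benjamini-Hochberg adjusted p = 0.713). The other 4 probes of xyn2 were not well above background, and what this spot measures was not tested.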

How the results depend on the processing

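The 3 calls among xylan enzyme genes changed over the 17 alternatives. With the common lower limit, quantile normalization, cyclic loess or the percentile over detected probes 1 was left (ASTRICH55319, higher). They became 1 with the brightest probe (ASTRICH123283, lower) and 5 with normexp (all lower, as were 54.5% of all genes). Without a filter there were 5 (4 lower, as were 33.6% of all genes), where xyn4 and glr1 were called lower though no probe of theirs met the filter. Rises were 31.5% of all called genes, and 48.4% with the common limit, 58.6% after quantile normalization, 60.4% after cyclic loess, 42.7% when scaled over detected probes, 15.8% with normexp and 51.2% in the authors' table. The median change of the tested xylan enzyme genes of -0.45 was -0.10, -0.069 and -0.10 with the first 3 of these, -0.35 with the percentile over detected probes, -0.18 with normexp, -0.070 with the average of detected probes, -0.029 in the authors' table, 0.051 with the brightest probe and -0.36 to -0.55 with an array left out. Of 4 single-probe calls, normexp left 2, the filter on all 4 arrays 1, no filter gave 17, and leaving out an array 0 to 7. Cellulase calls (9) were 3, 3 and 4 with the common lower limit, quantile normalization and cyclic loess, 2 with the brightest probe, 5 with detected probes, 5 in the authors' table and 5 to 7 with an array left out; the 3 regulator and pentose calls were 7 with normexp and 2 to 4 with an array left out.

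Signs turned for ASTRICH76210 (0.33 brightest probe, 0.027 detected probes, 0.051 authors' table), for axe1 (0.088 common lower limit, 0.12 quantile, 0.13 cyclic loess, 0.26 brightest probe, 0.26 detected probes, 0.014 authors' table), for ace1 (0.28 quantile, 0.32 cyclic loess, 0.072 percentile over detected probes, 0.14 normexp, 0.10 detected probes, 0.46 authors' table, and -0.19 to 0.15 with an array left out) and for cre1 (0.16 quantile, 0.21 cyclic loess, 0.20 normexp, 0.16 authors' table). The cause was not tested. The replicate numbers showed no pairing across the genes tested after scaling (r of deviations 0.0102). Scaling removes shifts shared by a whole array, so this r cannot tell whether the samples were paired. With the replicate block 4 xylan enzyme genes were called, 1 higher and 3 lower, and 4 single probes. A slide block was not run, since all arrays shared a scan time. Dim signal limits the averaged values of the xylan enzyme genes, of whose 49 probes 6, a left-out xyn2 spot included, were well above background on all 4 arrays.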
